A study of Mus musculus with 12 samples.

Results

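CD8 T cells that lacked TYK2 were compared with CD8 T cells that made a kinase-inactive TYK2 protein, both sorted from MC38 tumours. The comparison used the 2 libraries labelled KO and the 2 libraries labelled KE, 4 of the 12 libraries of the series, and all genes of the count table. Tumour mice were on a C57BL/6N background, sex-matched and 6 to 12 weeks old, and received the MC38 colon adenocarcinoma line under the skin with no further treatment. Per the study's methods the KO mice carried a germline Tyk2 null allele in all cells, and the KE mice carried the Tyk2 point mutation K923E in all cells, which changes a lysine to glutamate. For the tumour mice the methods name the null line without a CMV-cre transgene, whereas the names of the KO libraries in the study's sample sheet hold the word CMV, so which null line was used could not be told. Each library was made from 300 sorted cells positive for CD45, CD3ε and CD8a, by Smart-seq2, a PCR-based protocol for polyadenylated RNA from few cells. The labels do not say whether the libraries of a group came from separate mice, so the p-values below measure the spread between these libraries only. Libraries from 2 wild-type (WT) CD8 samples and from NK cells of the same genotypes are given beside the results where they help to place a value.

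TYK2 is a Janus kinase bound to the receptors for type I interferons, interleukin 12 and related cytokines. On cytokine binding it phosphorylates its partner kinase, the receptor and STAT transcription factors, which then activate interferon-stimulated genes and, in T cells and NK cells, Ifng and the cytotoxic programme. TYK2 also holds some receptor chains at the cell surface, a role that does not need the kinase reaction. KO cells lack both functions and KE cells only the reaction, so a transcript that differed between them would be a candidate for a role of the TYK2 protein beyond its kinase activity.

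The position changed in KE mice is shown because it is the only designed difference between the KE and WT genotypes. It lies in the kinase domain, in the lysine that binds ATP. In transcript Tyk2-203 codon 923, counted from the second in-frame ATG, is the lysine codon AAG, in exon 20 of 25, at chr9:21109353-21109355 (GRCm38, minus strand). This numbering was chosen because it puts a lysine at the position in the allele's name; counted from the first ATG the same lysine is codon 927 in Tyk2-203 and codon 950 in Tyk2-201. The coding sequence around it, 5′ to 3′ on the gene's strand, covers chr9:21109332-21109376, with the codon for lysine 923 in capitals.
Tyk2 codon 923: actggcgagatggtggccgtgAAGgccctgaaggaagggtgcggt

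Counts per library were 13268220 and 11825714 for KO and 12058703 and 14250553 for KE, and 13492 to 13951 genes had at least 1 count. Pearson's r of log2 CPM across the tested genes, which are not independent replicates, was 0.789 between the KO libraries, 0.763 between the KE libraries and 0.759 to 0.789 between libraries of different genotype. CPM here is a count scaled to a library of 1000000 after TMM scaling. The sorted cells carried CD8 T cell markers. Ptprc, which encodes CD45, was at 1889 and 2014 CPM in KO and at 1823 and 1677 CPM in KE. Cd8a was at 4043 and 2825 CPM in KO and at 3148 and 4086 CPM in KE, so the genotypes overlapped. Of 18 CD8 T cell markers tested, 3 were higher and 3 lower in both KO than in both KE libraries, or 16.7% each. Among all genes tested 15.1% were higher and 13.9% lower. The median log2 fold change of the 18 markers was -0.02. Klrb1c, the NK1.1 antigen of NK cells, was at 1.41 to 5.05 CPM in the 4 CD8 libraries.

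Tyk2 itself did not tell the genotypes apart. It was at 61.9 and 73.8 CPM in KO and at 58.9 and 46.7 CPM in KE, and at 48.3 and 86.1 CPM in WT. Both KO libraries were above both KE libraries, with a log2 fold change of 0.36 (SE 0.48, edgeR adjusted p = 1, n = 2 libraries per group). Gene counts do not show which exons were read, so the genotypes rest on the labels. Counts in this bulk RNA cannot tell fewer cells of a type from less RNA per cell.

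Across the transcriptome, 0 of 13279 genes passed the edgeR quasi-likelihood test at an adjusted p (FDR) under 0.05 with a log2 fold change of 1 or more in either direction, which is 0% of the genes. At an unadjusted p under 0.05 there were 258 genes higher in KO, or 1.94% of the genes tested, and 223 lower, or 1.68%. Together these were 481 genes, against 663.95 that the 5% level alone would pass among 13279. The smallest adjusted p was 0.538. In 15.1% of tested genes both KO libraries lay above both KE libraries, and in 13.9% both lay below. limma-voom also called 0 genes, with 718 at an unadjusted p under 0.05, and DESeq2 called 89 genes higher (0.67%) and 68 lower (0.512%). Of the 157 DESeq2 calls, 121 had at most 3 counts in each library of the lower genotype. In 110 of the 157 calls the genotypes did not overlap.

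The data bound the size of a difference only for the better measured genes. The 95% interval of the edgeR log2 fold change lay within -1 and 1 for 841 genes, 6.33% of those tested, and within -2 and 2 for 3234 genes, 24.4%. Among 2358 genes with a mean of at least 100 CPM in KO or KE it lay within -1 and 1 for 809, or 34.3%. The common biological coefficient of variation was 109%.

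**Figure D1:**
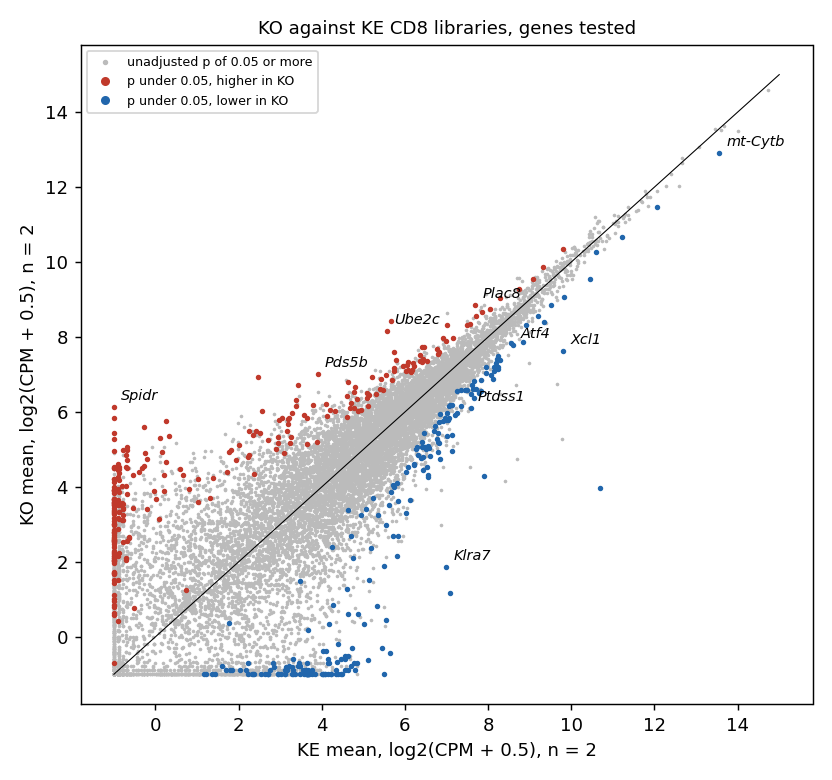
Mean of the 2 KO libraries (vertical) against the mean of the 2 KE libraries (horizontal), each as log2(CPM + 0.5), for the 13279 genes tested in CD8 T cells. Red and blue points are the 258 and 223 genes at an unadjusted p under 0.05, many of which lie along the lower edge of one axis where one genotype had few or no counts.

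Genes higher in KO were led by transcripts that were nearly missing from both KE libraries. Spidr, which encodes a scaffold of homologous recombination repair (chr16:15889224-16146851, minus strand), was at 72.4 and 65.8 CPM in KO and had 0 counts in both KE libraries. WT libraries held 84.4 and 15.5 CPM. Against a floor of 3 counts over both KE libraries, or 0.117 CPM, Spidr was at least 594-fold higher in KO, with an edgeR adjusted p of 0.538. Spidr exons overlap those of Cebpd on the other strand, and the strand setting used for counting was not given in the sources used here.

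Several further genes with a low level had the same form. Zfp157, a zinc finger gene, was at 29.1 and 36.7 CPM in KO and at 0.165 and 0.0732 CPM in KE. It was 281-fold higher by the ratio of counts, with an exact 95% interval of 95.8 to 1365 that covers counting error only. Rnf43, an E3 ligase that dampens Wnt receptors, was at 15.1 and 30.0 CPM in KO and at 0.0827 and 0.146 CPM in KE. Serpinb1a, an inhibitor of serine proteases, was at 29.2 and 32.5 CPM in KO, at 0.165 and 0 CPM in KE and at 127 and 108 CPM in WT, so that KO lay between KE and WT. Keap1, the adaptor that targets NRF2 for destruction (chr9:21229730-21239361, minus strand), was at 25.6 and 19.8 CPM in KO and at 0.0827 and 0 CPM in KE. Its WT libraries were at 32.4 and 23.1 CPM. These genes shared a near absence in KE, where each had at most 3 counts in both libraries together.

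Snap47 and Idh2 were of the same kind. Snap47, a SNARE protein, was at 24.4 and 20.0 CPM in KO and at 0.165 and 0.0732 CPM in KE. Idh2, the mitochondrial isocitrate dehydrogenase, was at 25.6 and 30.6 CPM in KO and at 0 and 0.22 CPM in KE. Rad51d, Camk2b and Pim3 were at 41.3, 16.4 and 15.5 CPM in KO 1 and at 4.73, 3.90 and 4.98 CPM in KO 2, with at most 1 count in either KE library for each. Adjusted p-values of these 5 genes were 0.86 to 1.

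Pds5b and Ddrgk1 were the better measured of these 12 genes, with counts in both genotypes. Pds5b, a regulator of cohesin, was at 125 and 131 CPM in KO and at 7.19 and 21.8 CPM in KE, with WT at 63.2 and 61.8 CPM. Its log2 fold change was 3.14 (SE 0.64, 95% interval 1.72 to 4.57, edgeR adjusted p = 0.86, n = 2 libraries per group). Ddrgk1, an adaptor of protein modification by UFM1, was at 56.6 and 89.0 CPM in KO and at 14.96 and 11.9 CPM in KE, with a log2 fold change of 2.44 (SE 0.52, 95% interval 1.29 to 3.59, edgeR adjusted p = 0.86, n = 2 libraries per group).

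Genes lower in KO were led by Klra7, which encodes the inhibitory MHC class I receptor Ly49G (chr6:130218605-130233322, minus strand). Klra7 was at 5.13 and 1.16 CPM in KO and at 86.6 and 167 CPM in KE, with WT at 0.89 and 5.80 CPM. Its log2 fold change was -5.32 (SE 0.88, 95% interval -7.28 to -3.36, edgeR adjusted p = 0.569, n = 2 libraries per group). The KE libraries stood apart from both KO and WT. In NK libraries Klra7 was at 688 and 666 CPM in KO and at 746 and 427 CPM in KE.

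Lyn, a Src-family kinase, was at 0.689 and 0.83 CPM in KO and at 19.7 and 44.0 CPM in KE, with a log2 fold change of -5.37 (SE 0.93). Itga2, the integrin alpha 2 chain, was at 0.153 and 0.083 CPM in KO and at 9.09 and 11.8 CPM in KE. Eef2k, the kinase that restrains translation elongation, had 0 counts in both KO libraries, 155 and 150 counts in KE and 0 in both WT libraries, at least 99.2-fold lower in KO against the floor of 3 counts over the group. Lyn and Itga2 were also low in WT, at 0.218 to 3.34 CPM. In the KO and KE NK libraries Lyn was at 61.7 to 162 CPM and Itga2 at 13.0 to 88.6 CPM.

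Ptdss1, which makes phosphatidylserine, was the best measured of the lower genes. It was at 79.7 and 56.6 CPM in KO, at 185 and 196 CPM in KE and at 165 and 182 CPM in WT, with a log2 fold change of -1.48 (SE 0.32, 95% interval -2.20 to -0.77, edgeR adjusted p = 0.92, n = 2 libraries per group). Here KO was the genotype that stood apart. Lman2l, a cargo receptor of the secretory pathway, was at 0.0765 and 0.249 CPM in KO, 38.9 and 4.10 CPM in KE and 32.7 and 38.3 CPM in WT. Wdr46, a nucleolar protein, was at 1.07 and 0.996 CPM in KO, 36.8 and 21.2 CPM in KE and 16.2 and 14.9 CPM in WT. Dcaf11, a substrate receptor of a ubiquitin ligase, was at 19.9 and 41.1 CPM in KO, 195 and 85.5 CPM in KE and 102 and 189 CPM in WT.

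Hhex, a homeobox transcription factor, was at 4.75 and 7.22 CPM in KO and at 33.3 and 17.7 CPM in KE, and at 87.9 to 238 CPM in the KO and KE NK libraries. Xcl1, a chemokine of activated CD8 T cells that draws cross-presenting dendritic cells, was at 198 and 193 CPM in KO, at 1422 and 375 CPM in KE and at 21.3 and 32.6 CPM in WT, with a log2 fold change of -2.20 (SE 0.58, edgeR adjusted p = 1, n = 2 libraries per group). Without KE 1 it was -0.94. In the KO and KE NK libraries Xcl1 was at 702 to 1535 CPM. Exons of Xcl1 overlap Gm20743 on the other strand, which was at 10.3 and 9.96 CPM in KO and 42.0 and 23.3 CPM in KE, so reads of the pair cannot be told apart without strand. Wdr5b and Sept4 had 0 to 2 counts in each KO library and 38 to 456 in each KE library. Of these 24 genes, which were chosen by their edgeR p and by libraries that do not overlap, 15 had at most 3 counts in each library of the lower genotype, 11 overlapped an exon of another gene and 23 were called by DESeq2.

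Both mutants were made by gene targeting at Tyk2, and of 50 tested genes that start within 1 Mb of it 8 were higher (16%) and 11 lower (22%) in both KO libraries, against 15.1% and 13.9% of all genes, with a median log2 fold change of 0.06. Keap1 was the only one of them at an unadjusted p under 0.05. In NK libraries Keap1 was at 18.5 and 23.5 CPM in KO and at 18.0 and 21.5 CPM in KE. Cdc37, a chaperone of kinases and a neighbour of Tyk2, was at 130 and 97.6 CPM in KO and at 162 and 186 CPM in KE.

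**Figure D2:**
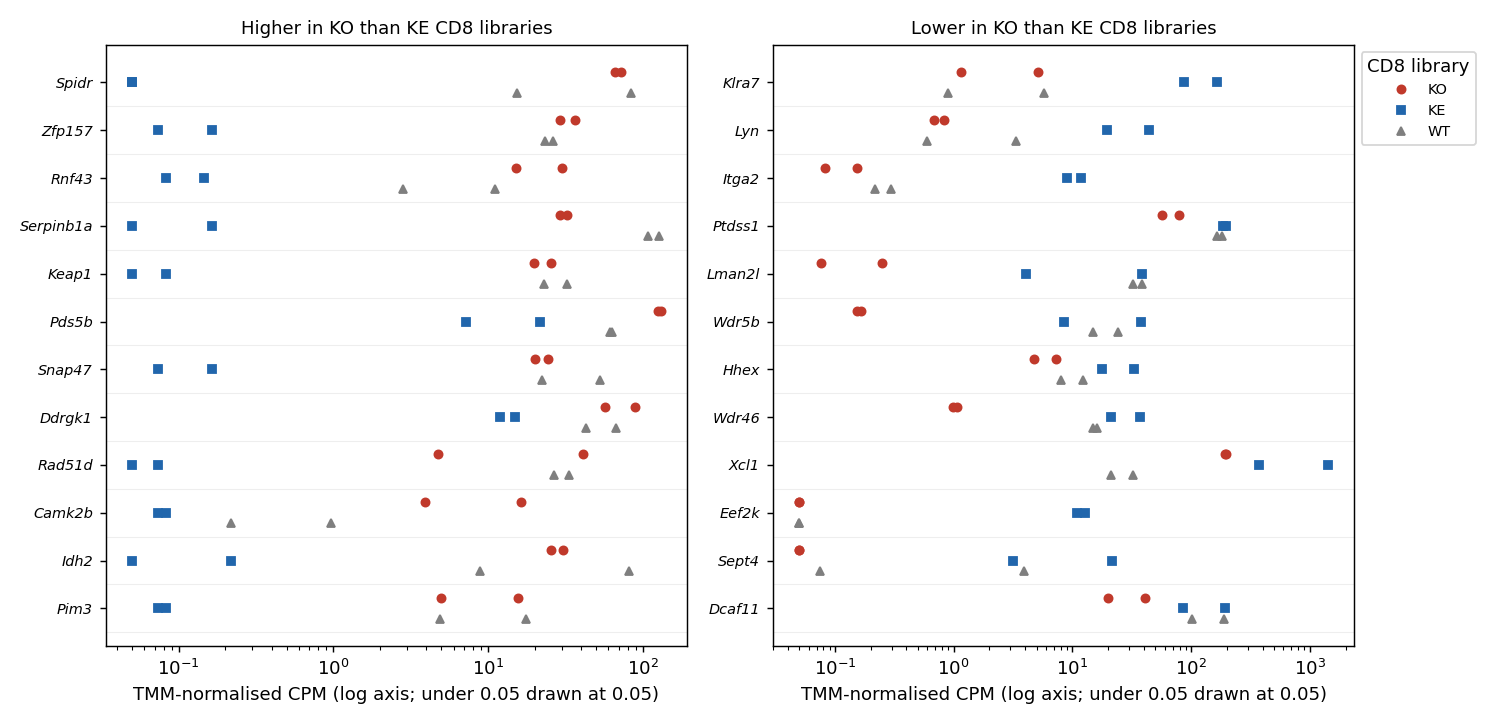
CPM (log axis) of the 12 higher and 12 lower genes in each KO (red circles), KE (blue squares) and WT (grey triangles) CD8 library. Values under 0.05 CPM are drawn at 0.05; for Spidr both KE libraries are at 0 counts, and for Klra7 both KE libraries, at 86.6 and 167 CPM, lie above all KO and WT libraries.

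The receptor and JAK-STAT pathway showed no difference past the test. Of 17 tested genes among TYK2-coupled receptors and Janus kinases, 4 were higher and 4 lower in both KO libraries, or 23.5% each. Among all genes 15.1% were higher and 13.9% lower. Of the 17 genes 0 had an unadjusted p under 0.05, and their median log2 fold change was -0.39. The median was nearer 0 on leaving out any 1 library, at -0.27 without KO 1, -0.22 without KO 2, -0.0764 without KE 1 and 0 without KE 2. Il10ra, the ligand-binding chain for interleukin 10, was at 129 and 116 CPM in KO and at 26.0 and 111 CPM in KE. Il10rb, the chain that binds TYK2, was at 127 and 112 CPM in KO and at 165 and 157 CPM in KE, with a log2 fold change of -0.43 (95% interval -1.02 to 0.16). Il27ra was at 150 and 159 CPM in KO and at 271 and 189 CPM in KE. Il6ra was at 0.153 and 1.49 CPM in KO and at 23.1 and 30.9 CPM in KE, with a 95% interval of -10.34 to 0.30 on the log2 scale.

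The transcription factors downstream gave no difference past the test either. Of 15 STAT and IRF genes, 2 were higher and 2 lower in both KO libraries (13.3% each, against 15.1% and 13.9% of all genes). Their median was -0.17 and 0 had an unadjusted p under 0.05. Stat4, which carries interleukin 12 signals, was at 183 and 207 CPM in KO and at 291 and 243 CPM in KE, with a log2 fold change of -0.45 (95% interval -1.13 to 0.22). Stat5b was at 16.8 and 28.3 CPM in KO and at 57.0 and 42.4 CPM in KE. Irf7 was at 52.4 and 19.8 CPM in KO and at 99.3 and 18.4 CPM in KE, with WT at 307 and 299 CPM. Of 18 negative regulators of the pathway, 2 were higher (11.1%) and 1 lower (5.56%) in both KO libraries, with a median of -0.17. Without 1 library the medians of both groups lay on either side of 0, from -0.37 to 0.0851. Socs1, a feedback inhibitor of Janus kinases, was at 48.5 and 28.4 CPM in KO and at 57.6 and 78.6 CPM in KE.

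Interferon-stimulated genes, the classical targets of TYK2 signalling, did not separate KO from KE. Of 47 tested robust interferon-stimulated genes, 4 were higher and 5 lower in both KO libraries, shares of 8.51% and 10.6% against 15.1% and 13.9% of all genes. The median log2 fold change was -0.17, or -0.38 to 0.0385 without 1 library, and 0 members had an unadjusted p under 0.05. The interval lay within -1 and 1 for 3 of the 47 and within -2 and 2 for 17. Ddx58, the sensor RIG-I, was at 61.5 and 58.4 CPM in KO and at 218 and 34.7 CPM in KE. Oas1b, an antiviral synthetase, was at 29.9 and 19.4 CPM in KO and at 0.0827 and 2.56 CPM in KE. Eif2ak2, the kinase PKR, was at 2.14 and 19.4 CPM in KO and at 58.9 and 16.2 CPM in KE.

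MHC class I antigen processing genes had narrow intervals. Of 22 tested genes 0 were higher and 3 lower (13.6%) in both KO libraries, against 15.1% and 13.9% of all genes. The median was -0.03, or -0.15 to 0.13 without 1 library, and the 95% interval lay within -1 and 1 for 16. H2-D1, a classical class I heavy chain, was at 4464 and 3893 CPM in KO and at 4588 and 5407 CPM in KE, with a log2 fold change of -0.26 (95% interval -0.67 to 0.15). Nlrc5, the transactivator of class I genes, was at 195 and 149 CPM in KO and at 310 and 181 CPM in KE.

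**Figure D3:**
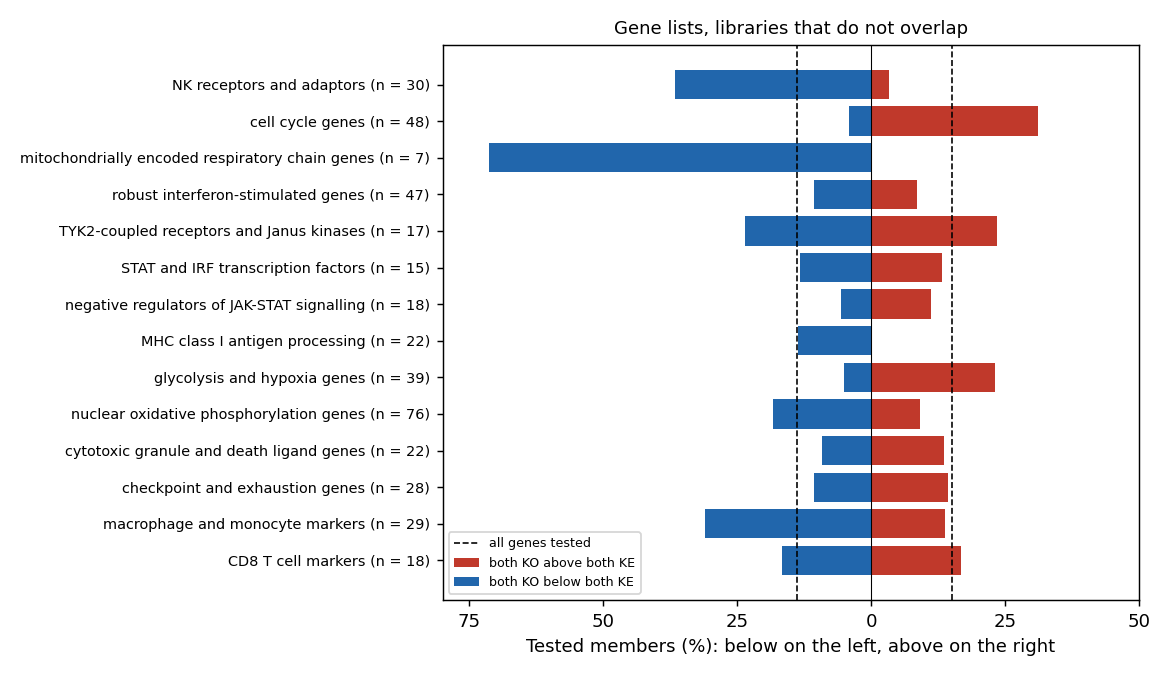
Share of the tested members of 14 gene lists for which both KO libraries lay above both KE libraries (red, right) or below them (blue, left), in percent. Dashed lines are the shares among all tested genes, 15.1% above and 13.9% below; mitochondrially encoded genes (71.4%), NK receptors (36.7%), macrophage markers (31.0%), receptors and Janus kinases (23.5%), nuclear oxidative phosphorylation genes (18.4%) and CD8 T cell markers (16.7%) extend past the line on the left, and cell cycle genes (31.2%), receptors and Janus kinases (23.5%), glycolysis genes (23.1%) and CD8 T cell markers (16.7%) on the right.

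NK receptors and adaptors leaned lower in KO. Of 30 tested genes 11 were lower and 1 higher in both KO libraries (36.7% and 3.33%, against 13.9% and 15.1% of all genes). At an unadjusted p under 0.05, 8 were lower and 1 higher, beside 1.68% and 1.94% of all genes. The median log2 fold change was -0.87, or -0.72 with genes at 0 counts set to their bound, beside 0 over all genes, and -0.96 to -0.27 without any 1 of the 4 libraries, with -0.49 without KO 1 and -0.27 without KE 2. 0 passed the adjusted test. Of 8 tested Ly49 genes, which encode MHC class I receptors and have near-identical copies, 5 were lower in both KO libraries and 0 higher. Their summed level was 14.8 and 4.23 CPM in KO, 106 and 272 CPM in KE and 13.0 and 49.8 CPM in WT. Klra7, chosen above, made up most of the KE sums, and without it the other 7 genes summed to 9.72 and 3.07 CPM in KO, 18.9 and 105 CPM in KE and 12.2 and 44.0 CPM in WT, so that KE and WT overlapped. Only uniquely aligned reads were counted, so reads shared by Ly49 copies are missing.

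Single receptors show where the difference lay. Klre1, which pairs with Klri chains, was at 170 and 121 CPM in KO and at 223 and 336 CPM in KE, with a log2 fold change of -0.94 (SE 0.36). Klra3 was at 3.98 and 0.664 CPM in KO and at 15.5 and 5.93 CPM in KE. Klra9 was at 0.765 and 0.747 CPM in KO and at 0.909 and 34.1 CPM in KE, so its difference came from KE 2. Ly6c2, a surface marker of memory and effector T cells, was at 600.3 and 890.3 CPM in KO, at 1213 and 1588 CPM in KE and at 4740 and 2885 CPM in WT, with a log2 fold change of -0.91 (SE 0.30). In other receptors the genotypes overlapped. Klrk1, which encodes NKG2D, was at 1158 and 960.0 CPM in KO and at 886 and 1356 CPM in KE, and Klrd1, which encodes CD94, was at 1665 and 1779 CPM in KO and at 1075 and 1678 CPM in KE.

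Markers of NK cells were examined beside this group. Ncr1, which encodes NKp46, was at 1.99 and 1.74 CPM in KO and at 1.32 and 1.03 CPM in KE, against 1230 to 2298 CPM in the KO and KE NK libraries. Tyrobp was at 8.19 and 13.1 CPM in KO and at 8.18 and 15.5 CPM in KE. Of the 10 NK markers tested, 4 were lower (40%) and 1 higher (10%) in both KO libraries, against 13.9% and 15.1% of all genes. The summed level of the 10 was 266 and 1299 CPM in KO and 400.0 and 963 CPM in KE. Gzma, which effector T cells also make, set the overlap of these sums. Without it the other 9 markers summed to 249 and 174 CPM in KO and to 379 and 491 CPM in KE. Most of that sum was Klre1, one of the receptors above, and Fcer1g, and without these 2 as well the other 7 summed to 19.8 and 48.8 CPM in KO and to 32.9 and 61.5 CPM in KE, so the genotypes overlapped. Fcer1g, a signalling adaptor that myeloid cells also use, was at 59.3 and 4.90 CPM in KO and at 123 and 92.9 CPM in KE. Klrb1c was at 2.45 and 2.74 CPM in KO and at 1.41 and 5.05 CPM in KE. The part of NK cell RNA in the lower receptor levels was not tested.

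**Figure D4:**
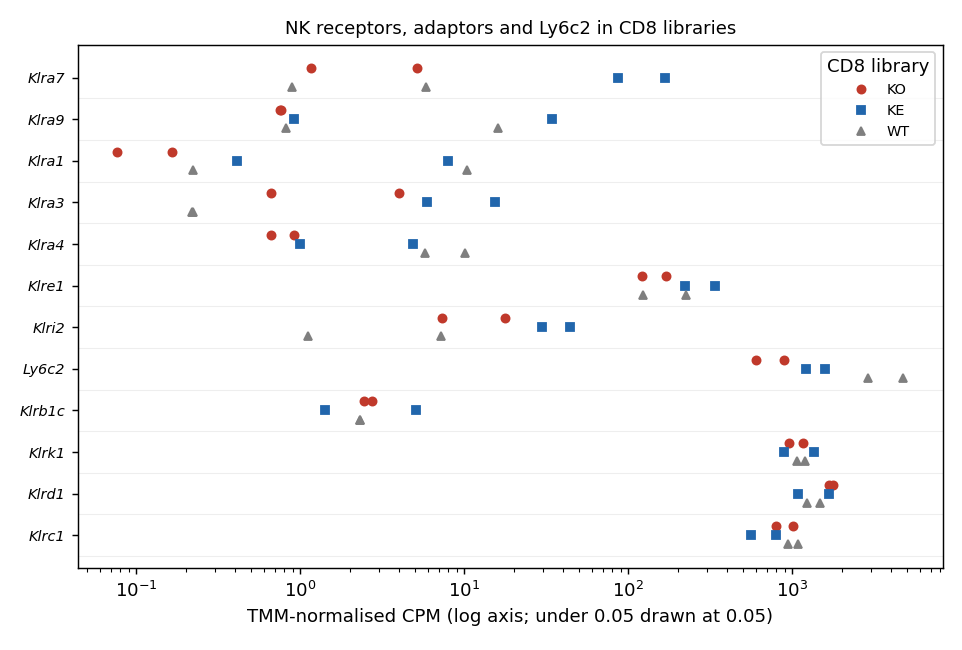
CPM (log axis) of 11 NK receptor genes and Ly6c2 in each KO (red circles), KE (blue squares) and WT (grey triangles) CD8 library. The 8 genes from Klra7 down to Ly6c2 are lower in both KO than in both KE libraries, by little in KE 1 for Klra9 and Klra4, whereas KO and KE overlap for Klrb1c, Klrk1, Klrd1 and Klrc1.

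Cell cycle genes leaned higher in KO. Of 48 tested genes 15 were higher and 2 lower in both KO libraries (31.2% and 4.17%, against 15.1% and 13.9% of all genes). The median log2 fold change was 0.44. Only 1, higher in KO, had an unadjusted p under 0.05, beside 1.94% of all genes higher at that level. Ube2c, the ubiquitin-conjugating enzyme of the anaphase-promoting complex, was at 270.4 and 296 CPM in KO and at 45.1 and 48.3 CPM in KE, with a log2 fold change of 2.60 (SE 1.07, edgeR adjusted p = 1, n = 2 libraries per group). Birc5 was at 182 and 298 CPM in KO and at 160 and 79.5 CPM in KE, and Mcm7, a subunit of the replicative helicase, at 108 and 154 CPM in KO and 77.1 and 54.0 CPM in KE. The summed level of the group was 6234 and 7501 CPM in KO and 6432 and 3478 CPM in KE, so KE 2 was the low library. The median was 1.04 without KE 1, 0.15 without KE 2 and 0.14 without KO 2.

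Metabolic genes were described by compartment. Of 7 tested mitochondrially encoded respiratory chain genes 0 were higher and 5 lower in both KO libraries (71.4%), with a median of -0.52. Among all genes 15.1% were higher and 13.9% lower. The other 6 of the 13 mitochondrially encoded genes listed had 0 counts in all 4 libraries. mt-Cytb, a subunit of complex III, was at 7627 and 7647 CPM in KO, at 12717 and 11470 CPM in KE and at 9038 and 6964 CPM in WT, with a log2 fold change of -0.66 (SE 0.22, edgeR adjusted p = 1, n = 2 libraries per group). mt-Nd5, of complex I, was at 2648 and 3017 CPM in KO and at 4488 and 4025 CPM in KE. mt-Co1 was at 11225 and 11925 CPM in KO and at 18141 and 15085 CPM in KE. Mitochondrial genes took 4.69% and 6.23% of all counts in KO and 7.68% and 6.17% in KE, a range that overlapped.

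Nuclear genes of oxidative phosphorylation had a median of 0.00. Of 76 tested, 7 were higher (9.21%) and 14 lower (18.4%) in both KO libraries, against 15.1% and 13.9% of all genes. The interval lay within -1 and 1 for 50 of them. Sdhc, of complex II, was at 90.2 and 98.9 CPM in KO and at 150.5 and 151 CPM in KE. Of 39 glycolysis and hypoxia genes 9 were higher (23.1%) and 2 lower (5.13%) in both KO libraries. Their median was 0.25, or 0.0535 without KE 1 and 0.66 without KE 2, and 0 had an unadjusted p under 0.05. Slc2a1, the glucose transporter GLUT1, was at 246 and 187 CPM in KO and at 125 and 138 CPM in KE. Hif1a was at 538 and 524 CPM in KO and at 281 and 402 CPM in KE. Both genes were above KE in both KO libraries and below the WT libraries, at 317 to 936 CPM.

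Among growth genes, Atf4, the transcription factor of the amino acid response, was at 251 and 188 CPM in KO and at 411 and 367 CPM in KE, with a log2 fold change of -0.82 (SE 0.24, 95% interval -1.36 to -0.29, edgeR adjusted p = 1, n = 2 libraries per group). Psph, of serine synthesis, was at 134 and 187 CPM in KO and at 79.3 and 89.1 CPM in KE. Cad, the first enzyme of pyrimidine synthesis, was at 23.3 and 39.2 CPM in KO, with 3 and 0 counts in KE. Myc was at 175 and 106 CPM in KO and at 94.8 and 47.7 CPM in KE.

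Effector genes gave few differences outside the spread. Of 22 cytotoxic granule and death ligand genes 3 were higher (13.6%) and 2 lower (9.09%) in both KO libraries. The shares over all genes were 15.1% and 13.9%. The median of these 22 genes was 0.11, or -0.21 to 0.49 without 1 library. Ctsw, a cathepsin of cytotoxic cells, was at 1963 and 1276 CPM in KO and at 2093 and 2649 CPM in KE, with a log2 fold change of -0.55 (SE 0.21). Gzmc, a granzyme, was at 9.72 and 20.7 CPM in KO and at 14.0 and 3284 CPM in KE, so that KE 2 alone set its fold change. Without KE 2 its log2 fold change was 0.12. Of 28 checkpoint and exhaustion genes 4 were higher (14.3%) and 3 lower (10.7%) in both KO libraries. Their median was 0.27, or -0.14 to 0.55 without 1 library, and 0 had an unadjusted p under 0.05. Cd244a, a receptor of the SLAM family, was at 119 and 14.5 CPM in KO and at 124 and 252 CPM in KE, and Nr4a2, induced by T cell receptor signals, at 646 and 191 CPM in KO and 236 and 208 CPM in KE.

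Memory, homing and immediate early genes followed. Lef1, a transcription factor of naive and stem-like T cells, was at 88.9 and 156 CPM in KO and at 26.7 and 46.5 CPM in KE, with a log2 fold change of 1.74 (SE 0.61, edgeR adjusted p = 1, n = 2 libraries per group). Itgae, which encodes CD103, had 0 counts in both KO libraries, 41.3 CPM in KE 1 and 0 in KE 2. Of the immediate early genes, Nfkbia, the inhibitor of NF-κB, was at 411 and 258 CPM in KO and at 702 and 597 CPM in KE, with a log2 fold change of -0.96 (SE 0.33), and Btg2 was at 329 and 428.3 CPM in KO and 428.3 and 745 CPM in KE.

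Markers of myeloid cells were examined as well. Of 29 tested macrophage and monocyte markers 9 were lower (31%) and 4 higher (13.8%) in both KO libraries. The shares over all genes were 13.9% and 15.1%. The median of the list was -1.26, or -0.999 with genes at 0 counts at their bound. The median was 0.30 without KE 1 and -3.72 without KO 1. The summed level of the list was 1598 and 941 CPM in KO and 1954 and 1443 CPM in KE. Without Plac8, which T cells also express, it was 1063 and 554 CPM in KO and 1807 and 1180 CPM in KE, lower in both KO libraries. Lyz2, a lysozyme, was at 43.6 and 1.58 CPM in KO and at 172 and 66.5 CPM in KE. Apoe was at 64.1 and 2.82 CPM in KO and at 191 and 93.4 CPM in KE, and Cd68 at 23.3 and 24.5 CPM in KO and 95.8 and 71.6 CPM in KE. In both KE libraries these 3 markers were above both KO libraries. In other members of the list KO and KE overlapped. C1qb was at 45.3 and 12.4 CPM in KO and at 64.0 and 11.9 CPM in KE. Cd74 was at 146 and 2.07 CPM in KO and at 127 and 96.3 CPM in KE. Ctss was at 298 and 276 CPM in KO and at 421 and 233 CPM in KE. Sirpa had 0 counts in KO, 39.3 CPM in KE 1 and 0 in KE 2. Among other defining markers, Adgre1 was at 2.49 CPM or less and Csf1r at 2.68 CPM or less in all 4 libraries. Spp1, a cytokine of myeloid cells and some T cells, was at 37.0 and 0.996 CPM in KO and at 354 and 126 CPM in KE. In the KO and KE NK libraries Spp1 was at 164 to 312 CPM. The part of RNA from myeloid or NK cells in the differences of Lyn, Itga2, Hhex, Xcl1 and Spp1 was not tested. Plac8 was at 534 and 387 CPM in KO and at 147 and 263 CPM in KE. Of 11 tested heat shock and dissociation genes, which respond to handling, 3 were higher (27.3%) and 5 lower (45.5%) in both KO libraries, against 15.1% and 13.9% of all genes, with a median of -0.16. Their part in the results above was not tested. Hspa8, the one at an unadjusted p under 0.05, was at 1429 and 1161 CPM in KO and at 995 and 788 CPM in KE.

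The libraries used different T cell receptor segments. Among Trbv segments, which encode the variable part of the receptor's beta chain, Trbv16 took 37.5% (Wilson 95% interval 36.7% to 38.4%) and 32.8% of the Trbv counts in KO and 4.92% and 7.36% in KE. Trbv14 took 0.369% and 0% in KO and 12.9% and 20.2% in KE. Trbv16 took 7.86% and 24.9% in WT. The segment counts behind these shares were 10574 to 12481 per library, and the interval covers counting error only. Between 10 and 16 Trbv segments reached 1% in each of the 4 libraries.

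Alpha chain counts lay in fewer segments in the KE libraries. In KE 1 Trav7-1 took 62.1% of the Trav counts, and in KE 2 Trav13-2 took 79.3%. In KO the leading segments were Trav7-4 with 18.6% and Trav7-3 with 12.7%, and in WT the leading segments took 49.0% and 36.5%. KO libraries held 18 and 19 Trav segments at 1% or more, against 10 and 7 in KE and 15 and 11 in WT. The Trav counts behind these shares were 4104 and 2695 in KO and 7285 and 11576 in KE. Reads that align to several places were dropped, which removes reads from duplicated Trav segments. The part of receptor make-up in the differences above was not tested. Of 61 tested Trav and Trbv segments, 5 had an unadjusted p under 0.05 and 0 passed the adjusted test.

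**Figure D5:**
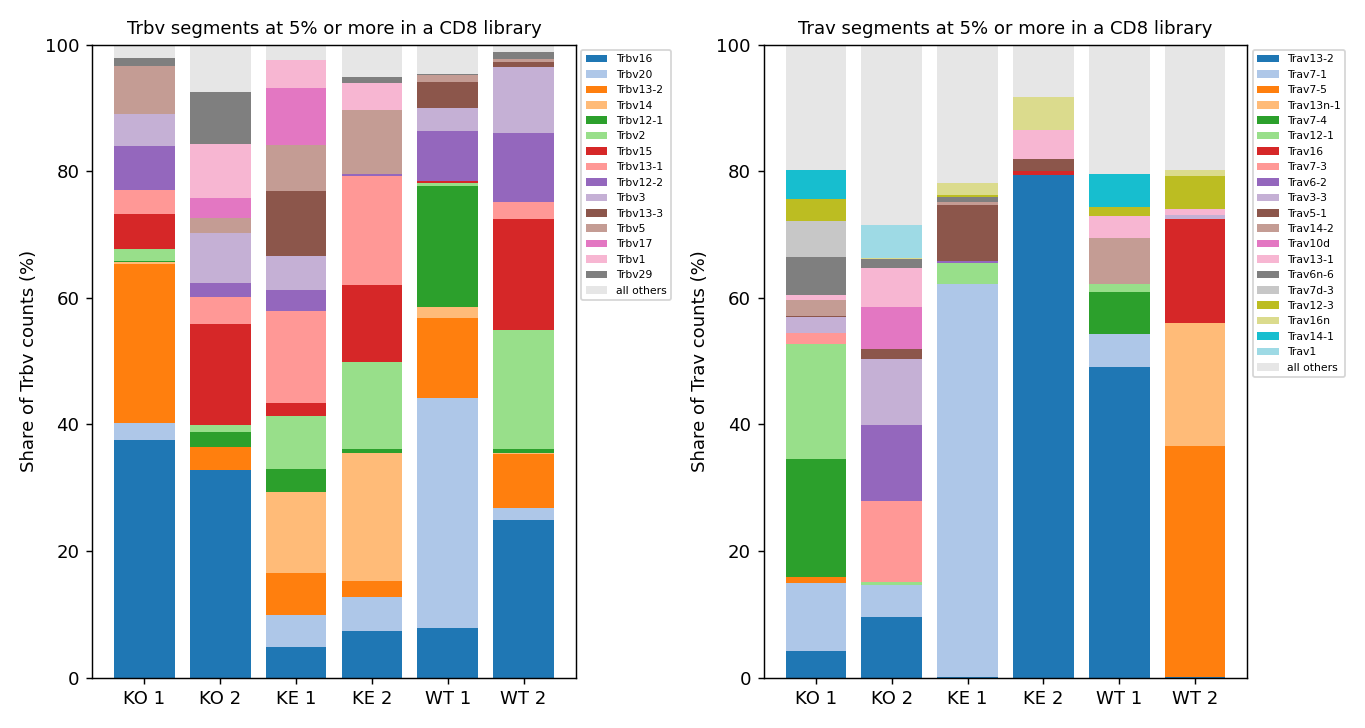
Share of Trbv counts (left) and Trav counts (right), in percent, taken by each segment that reached 5% in a CD8 library, for the KO, KE and WT libraries. Trbv16 leads both KO libraries, and 1 Trav segment takes 62.1% and 79.3% in the KE libraries.

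Whether the difference between KO and KE in CD8 T cells differed from that in NK cells was tested by the interaction. 0 of 13279 genes (0%) passed the adjusted test by edgeR, 633 (4.77%) had an unadjusted p under 0.05 and the smallest adjusted p was 0.977. limma-voom called 0, with 740 at an unadjusted p under 0.05, and DESeq2 called 182. Spidr was at 26.6 and 18.8 CPM in NK KO and at 34.4 and 13.7 CPM in NK KE. Its absence from KE was thus seen in CD8 libraries only. With 0 counts in both CD8 KE libraries, the size of its CD8 minus NK difference could not be estimated (edgeR adjusted p = 0.977). For Klra7 the CD8 minus NK difference was -5.53 on the log2 scale (SE 1.11). Rad51d was at 1.49 and 4.21 CPM in NK KO and at 35.1 and 60.5 CPM in NK KE, the opposite order to CD8 T cells. Commd9, a regulator of NF-κB and endosomal sorting, was at 0 and 0.0739 CPM in NK KO and at 46.2 and 30.6 CPM in NK KE, with CD8 values of 16.6 and 18.2 CPM in KO and 53.3 and 46.1 CPM in KE. Mthfd2, of mitochondrial folate metabolism, was at 0.235 and 0 CPM in NK KO, at 17.1 and 5.02 CPM in NK KE, at 172 and 173 CPM in CD8 KO and at 96.7 and 53.6 CPM in CD8 KE.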

How the data were processed

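The authors cut adapters from the short reads with Trimmomatic, mapped the reads to GRCm38 with STAR and counted those with a single alignment over exons with summarizeOverlaps. The deposited values are raw read counts per gene, not normalized, for 54232 genes in 12 libraries. Whether counting used strand was not given in the sources used here. No molecular identifiers were stated, so intervals and floors cover counting error only.

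Groups were taken from the sample titles. A model with 1 mean for each of the 6 groups was fitted to all 12 libraries in edgeR 4.0.16 (R 4.3.3), with TMM scaling and two-sided robust quasi-likelihood tests, for 13279 genes whose normalized counts averaged 10 or more. The contrasts were CD8 KO minus KE, and this difference minus that of NK cells. Benjamini-Hochberg adjustment was over all genes tested. Calls needed an FDR under 0.05 and a log2 fold change of 1 or more in either direction. SE was taken from the log2 fold change and its F statistic. The study's tool, DESeq2 1.42.0, was an alternative, as were limma-voom, other scaling, filters and libraries. The fits were also run on simulated data, with the outcome not given here.

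Genes were named by a rule: Tyk2 and sort markers, up to 12 higher and 12 lower genes by p with at least 10 CPM and no overlap of KO and KE libraries, without unnamed genes or receptor segments, up to 4 per list, and 5 by the interaction. Klrk1, Klrd1, Klrc1, Klri2, Klra1, Klra4, Ncr1, Tyrobp, Csf1r, Adgre1, Lyz2, Apoe, Cd68, Ifi213 and Gm20743 were added after their values were seen. C1qb, Cd74 and Ctss were also added in this way. The genes, lists and comparison were chosen with earlier results of these data known, so lists are described by counts and medians without a test. The lists whose medians are printed (14 plotted, the heat shock genes and the genes near Tyk2) were picked from 30 lists and the neighbours of Tyk2 after their values were seen, as were the sums without 1 gene. Some genes that the rule named are not reported here.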

Additional observations from a re-analysis of the deposited data

How the results depend on the processing

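The count of 0 called genes for KO against KE in CD8 T cells was also found with DESeq2 size factors, limma-voom, the 6 CD8 libraries only, the 4 libraries only and the replicate block, in 12 or in 4 libraries. It was 82 without the filter on low counts, all of them among the 13279 genes, 157 by DESeq2 on 12 libraries, 143 on the 6 CD8 libraries and 156 on the 4 libraries, of which 85 and 73 were among the 157. Leaving out 1 library gave 0 to 1, the 1 being Ifi213 without KE 1 (log2 fold change 3.98, adjusted p 0.0442). Genes at an unadjusted p under 0.05 numbered 892 without the filter, 966, 951 and 965 by DESeq2 on 12, 6 and 4 libraries, and 405 and 226 with the replicate block in 12 and 4 libraries, and 434 to 627 without 1 library. The interaction gave 105 calls without the filter and 182 by DESeq2, with 1106 and 1043 at the unadjusted level. The cause was not tested. Deviations from the group mean correlated at -0.00493 between same-numbered KO and KE libraries. With 2 libraries per group this value cannot tell whether the replicate numbers pair the libraries. Leaving out NK libraries was added after seeing the data and gave 471 to 857 genes at the unadjusted level.

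Median log2 fold changes of the lists without 1 library ranged from 0.14 to 1.04 for cell cycle genes, -0.38 to 0.0385 for robust interferon-stimulated genes, -0.27 to 0.00 for receptors and Janus kinases, -0.37 to 0.077 for STAT and IRF genes, -0.20 to 0.0851 for negative regulators, 0.0535 to 0.66 for glycolysis and hypoxia genes, -0.0475 to -0.0172 for nuclear oxidative phosphorylation genes, -0.21 to 0.49 for cytotoxic genes, -0.14 to 0.55 for checkpoint and exhaustion genes, -3.72 to 0.30 for macrophage markers, -0.24 to 0.15 for CD8 T cell markers and -0.15 to 0.13 for MHC class I genes. With the replicate block in 12 libraries the receptors and Janus kinases moved to -0.22, and with the block in 4 libraries the negative regulators moved to 0.0177 and the macrophage markers to -2.57. The other 116 of 140 list medians moved by less than 1 SD between libraries. The KO mean minus the KE mean of the number of Trav segments was 10 at the 1% level and 4.5 at the 5% level. Of 1092 values of 78 genes named by the rule, 10 changed sign, all on leaving out 1 library: the log2 fold change then ranged from -0.0265 to 1.08 for Cd3e, -0.36 to 0.16 for Cd8a, -1.86 to 0.79 for Ddx58, -7.76 to 0.12 for Gzmc, -7.79 to 4.42 for Il1b, -1.57 to 0.97 for Irf7, -0.96 to 0.88 for Klrb1c, -1.40 to 0.32 for Ighm and -0.22 to 1.54 for Nr4a2. Without the filter Klra7 had an adjusted p of 8.13e-31, and Gzmc, high in KE 2 only, one of 5.92e-68. With 0 counts in both libraries of a genotype, up to 3 counts over both, or 0.119 CPM in KO and 0.117 CPM in KE, could not be told from 0.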

Other observations

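Gene groups not described above gave no adjusted calls. The counts that follow stand beside 15.1% of all tested genes higher and 13.9% lower in both KO libraries, and 1.94% higher and 1.68% lower at an unadjusted p under 0.05. Of 45 tested MYC targets and ribosome biogenesis genes, 3 were higher (6.67%) and 3 lower (6.67%) in both KO than in both KE libraries. Of 18 effector transcription factors and surface markers, 2 were higher (11.1%) and 1 lower (5.56%). Of 22 secreted cytokines and chemokines, 2 were higher (9.09%) and 5 lower (22.7%). Of 22 immediate early genes, 3 were higher (13.6%) and 6 lower (27.3%), with Nfkbia and Btg2 at an unadjusted p under 0.05. Of 23 trafficking and residency receptors, 2 were higher (8.70%) and 5 lower (21.7%). Of 32 amino acid and sterol genes, 8 were higher (25%) and 3 lower (9.38%).

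RNA of other cells was present at low levels. Ighm, the constant region of IgM, was at 520 and 157 CPM in KO and at 436 and 394 CPM in KE. Tcrg-C2, a gamma chain constant segment, was at 71.9 and 136 CPM in KO and at 654 and 166 CPM in KE. Il1b was at 46.1 CPM in KE 1 and at 0.23 CPM or less in the other 3 libraries.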
